A study of Mus musculus with 13 samples.

Results

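Srebf2 and 9 genes it is known to control were followed in 13 mouse livers. They are Hmgcs1, Idi1, Fdps, Fdft1, Sqle, Lss, Cyp51, Insig1 and Stard4, so 10 genes of the 18820 that the array named with a feature of their own. The genes were given as a list, and each was read from the feature that carried its symbol alone. Only Idi1 had several such features, of which the brightest on average was taken. All 10 genes had a feature. The rule itself used no difference between groups.

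The study compared mice that lacked Sel1L in hepatocytes with wild-type mice, on the C57BL/6J background. Sel1L works with the ubiquitin ligase Hrd1 in ERAD, the route by which misfolded proteins leave the endoplasmic reticulum (ER) to be degraded. There were 3 Sel1L-deficient and 3 wild-type livers at 9 weeks of age, and 4 Sel1L-deficient and 3 wild-type livers at 3 weeks, each from 1 mouse on 1 array. Sel1L-deficient mice carried a floxed exon 6 of Sel1l from the Sel1ltm1e(KOMP)Wtsi allele, freed of its lacZ-neo cassette by FLPe, and Cre under the albumin promoter. That promoter acts in hepatocytes, and whether other liver cells kept the gene was not examined. The sources used here do not say whether wild-type mice carried floxed alleles, nor the sex of the mice. All mice had been fasted for 5 to 6 hours in the morning.

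Cholesterol is built from acetyl-CoA in the ER and cytosol, through mevalonate, the isoprenoids, squalene and lanosterol. The transcription factor SREBP2, encoded by Srebf2, is an ER membrane protein that is escorted to the Golgi and cut free when ER sterol is low, and then switches on the genes of this pathway, its own gene included. Insig proteins hold SREBP2 in the ER when sterol is high. The liver is a main site of cholesterol synthesis, and ERAD removes both the reductase of the mevalonate pathway and Insig1 in a sterol-dependent way.

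Promoters are shown for the regulator, 2 early enzymes and 1 late enzyme, so that the results below can be read beside the letters that SREBP2 and its partner NF-Y are known to bind. RefSeq entries (GRCm38.p6) were found for 6 of the 10 genes, and Fdps, Fdft1, Sqle and Stard4 had none in the table used. Each stretch covers the 190 bases before the start site, positions -190 to -1, on the + strand. Capitals mark CACCCCA, the core of the sterol regulatory element bound by SREBP2, and CCAAT, the box bound by NF-Y, each searched on both strands (CCAAT reads ATTGG on the other strand). Sites of the motifs did not overlap each other. The stretches are chr15:82147079-82147268 for Srebf2, chr13:119690161-119690350 for Hmgcs1, chr13:8885416-8885605 for Idi1 and chr10:76531415-76531604 for Lss.
Srebf2: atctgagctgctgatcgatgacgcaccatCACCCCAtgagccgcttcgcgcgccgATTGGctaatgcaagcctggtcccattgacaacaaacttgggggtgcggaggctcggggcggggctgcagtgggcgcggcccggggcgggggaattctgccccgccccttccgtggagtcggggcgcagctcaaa
Hmgcs1: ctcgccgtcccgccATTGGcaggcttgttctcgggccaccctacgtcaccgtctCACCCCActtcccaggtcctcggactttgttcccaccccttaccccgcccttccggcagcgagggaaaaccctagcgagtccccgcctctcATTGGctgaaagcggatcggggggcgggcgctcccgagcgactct
Idi1: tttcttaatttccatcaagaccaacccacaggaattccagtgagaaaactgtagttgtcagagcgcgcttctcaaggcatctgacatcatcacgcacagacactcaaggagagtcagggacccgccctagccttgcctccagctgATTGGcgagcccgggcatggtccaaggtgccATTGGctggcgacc
Lss: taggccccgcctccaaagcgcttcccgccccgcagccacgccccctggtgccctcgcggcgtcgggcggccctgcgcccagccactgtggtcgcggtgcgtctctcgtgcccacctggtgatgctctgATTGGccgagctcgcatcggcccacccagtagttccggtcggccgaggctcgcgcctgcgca

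Over the full entries, 250 bases before to 50 after the start, CACCCCA occurred in 2 of the 6 entries (Srebf2 at -161 and Hmgcs1 at -136) and in 7.62% of 32851 promoters of the same length. CCAAT occurred in all 6 entries, Cyp51 (at -29) and Insig1 (at -216) included, and in 37.4% of all promoters. In Hmgcs1 CCAAT lay at -237, -176, -45 and 11, in Idi1 at -45 and -14, in Lss at -62 and in Srebf2 at -135. These are matches of letters, and binding was not measured.

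The values are the authors' log2 expression from robust multi-array averaging (RMA), so that a difference of 1 is a doubling. They hold no detection call. Feature values ran from 0.41 to 13.62 with array medians of 3.72 to 3.81, and all 10 genes lay above those medians in every liver. Arrays of the same group correlated at 0.983 to 0.988 over features, and arrays of different groups at 0.976 to 0.987. Sel1l, the targeted gene, separated the genotypes at each age, with the Sel1L-deficient livers below. The log2 difference was -1.02 ± 0.28 at 9 weeks and -1.21 ± 0.26 at 3 weeks (SE; limma adjusted p = 0.108 and 0.391). Sel1l read at 9 weeks 7.90, 7.54 and 7.72 in Sel1L-deficient livers, against 8.78, 8.70 and 8.72 in wild-type livers. At 3 weeks Sel1l read 8.42, 7.90, 7.20 and 7.10 in Sel1L-deficient livers, against 8.94, 8.77 and 8.85 in wild-type livers. Hepatocyte markers such as Alb were high in all 13 livers, with a list mean of 12.2 to 12.4. Replicate 1 of the 9-week Sel1L-deficient livers stood apart, with the lowest value of all 13 livers for 8 of 8 Kupffer cell markers (Clec4f, Marco and Vsig4 among them), and results of the 9-week genotype comparison are given with and without it. In whole liver, fewer cells of a type and less RNA per cell cannot be told apart.

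Srebf2 was the regulator of the set. At 9 weeks Srebf2 read 7.63, 7.45 and 7.13 in Sel1L-deficient livers, against 6.88, 6.86 and 7.15 in wild-type livers. At 3 weeks it read 7.71, 7.58, 7.94 and 7.71 in Sel1L-deficient livers, against 7.83, 7.73 and 7.64 in wild-type livers. The 9-week wild-type livers had the lowest mean of the 4 groups. Replicate 3 of the 9-week Sel1L-deficient livers lay inside their range, and the other two lay above it. At 3 weeks the genotypes overlapped.

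The first enzymes make mevalonate and the isoprenoid units. Hmgcs1, the cytosolic HMG-CoA synthase, read at 9 weeks 9.93, 9.33 and 8.14 in Sel1L-deficient livers, against 8.37, 7.91 and 7.94 in wild-type livers. At 3 weeks Hmgcs1 read 8.95, 9.03, 10.20 and 9.69 in Sel1L-deficient livers, against 9.14, 9.30 and 9.18 in wild-type livers. Hmgcs1 spanned the widest range of the set, 2.29 log2 units over the 13 livers. At 9 weeks replicate 3 lay within the wild-type range and the other Sel1L-deficient livers above it, and at 3 weeks the Sel1L-deficient livers lay on both sides of wild type. Idi1, the isopentenyl diphosphate isomerase, read at 9 weeks 8.75, 7.51 and 7.17 in Sel1L-deficient livers, against 7.80, 7.35 and 7.65 in wild-type livers. At 3 weeks Idi1 read 8.26, 8.01, 9.13 and 8.51 in Sel1L-deficient livers, against 8.39, 8.79 and 8.82 in wild-type livers. Its Sel1L-deficient livers at 9 weeks lay on both sides of the wild-type livers. The second Idi1 feature gave nearly the same differences, 0.16 at 9 weeks and -0.23 at 3 weeks, beside 0.21 and -0.19 (Sel1L-deficient minus wild type, log2). Fdps, the farnesyl diphosphate synthase, read at 9 weeks 8.53, 8.41 and 8.27 in Sel1L-deficient livers, against 7.78, 7.24 and 7.33 in wild-type livers. At 3 weeks Fdps read 8.18, 8.24, 9.10 and 8.66 in Sel1L-deficient livers, against 8.54, 8.25 and 8.59 in wild-type livers. At 9 weeks all 3 Sel1L-deficient livers exceeded all wild-type livers, and at 3 weeks the groups overlapped. Mouse Fdps has processed pseudogenes, and whether they share its probes was not examined.

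The next enzymes make and close squalene. Fdft1, squalene synthase, read at 9 weeks 9.71, 8.81 and 8.40 in Sel1L-deficient livers, against 8.90, 8.93 and 8.72 in wild-type livers. At 3 weeks Fdft1 read 9.24, 9.43, 10.10 and 9.69 in Sel1L-deficient livers, against 9.76, 9.62 and 9.42 in wild-type livers. At 9 weeks its Sel1L-deficient livers enclosed the wild-type range. Other features annotated to both Fdft1 and Ctsb were not used. Sqle, squalene epoxidase, read at 9 weeks 8.33, 7.18 and 6.96 in Sel1L-deficient livers, against 7.11, 6.59 and 6.75 in wild-type livers. At 3 weeks Sqle read 7.78, 7.38, 8.24 and 7.96 in Sel1L-deficient livers, against 8.25, 7.99 and 7.95 in wild-type livers. Replicate 1 at 9 weeks was higher than every 3-week liver, while replicate 3 lay within the 9-week wild-type range. Lss, lanosterol synthase, read at 9 weeks 7.66, 7.32 and 6.75 in Sel1L-deficient livers, against 6.73, 6.39 and 6.37 in wild-type livers. At 3 weeks Lss read 7.09, 7.20, 7.83 and 7.32 in Sel1L-deficient livers, against 7.59, 7.55 and 7.37 in wild-type livers. The 9-week groups did not overlap, but the lowest Sel1L-deficient and the highest wild-type value were 6.75 and 6.73. Cyp51, lanosterol demethylase, read at 9 weeks 8.98, 8.30 and 8.05 in Sel1L-deficient livers, against 8.16, 7.48 and 7.88 in wild-type livers. At 3 weeks Cyp51 read 8.58, 8.49, 8.98 and 8.73 in Sel1L-deficient livers, against 8.76, 9.00 and 8.95 in wild-type livers. Replicate 3 of the 9-week Sel1L-deficient livers lay below the highest wild-type liver, and the rest above it.

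The last pair are a sterol sensor and a sterol carrier. Insig1, which retains SREBP2 in the ER, read at 9 weeks 10.51, 9.73 and 9.81 in Sel1L-deficient livers, against 9.82, 9.74 and 9.91 in wild-type livers. At 3 weeks Insig1 read 9.96, 10.24, 10.41 and 10.33 in Sel1L-deficient livers, against 9.96, 10.32 and 9.78 in wild-type livers. The groups overlapped at both ages and the range over all livers was the smallest of the set, 0.78 log2 units. Stard4, a cytosolic cholesterol transfer protein, read at 9 weeks 7.20, 6.36 and 6.44 in Sel1L-deficient livers, against 7.28, 7.31 and 6.80 in wild-type livers. At 3 weeks Stard4 read 7.15, 7.12, 7.13 and 6.94 in Sel1L-deficient livers, against 7.33, 7.67 and 7.42 in wild-type livers. All 4 Sel1L-deficient livers lay below wild type at 3 weeks, and replicates 2 and 3 did so at 9 weeks.

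**Figure D1:**
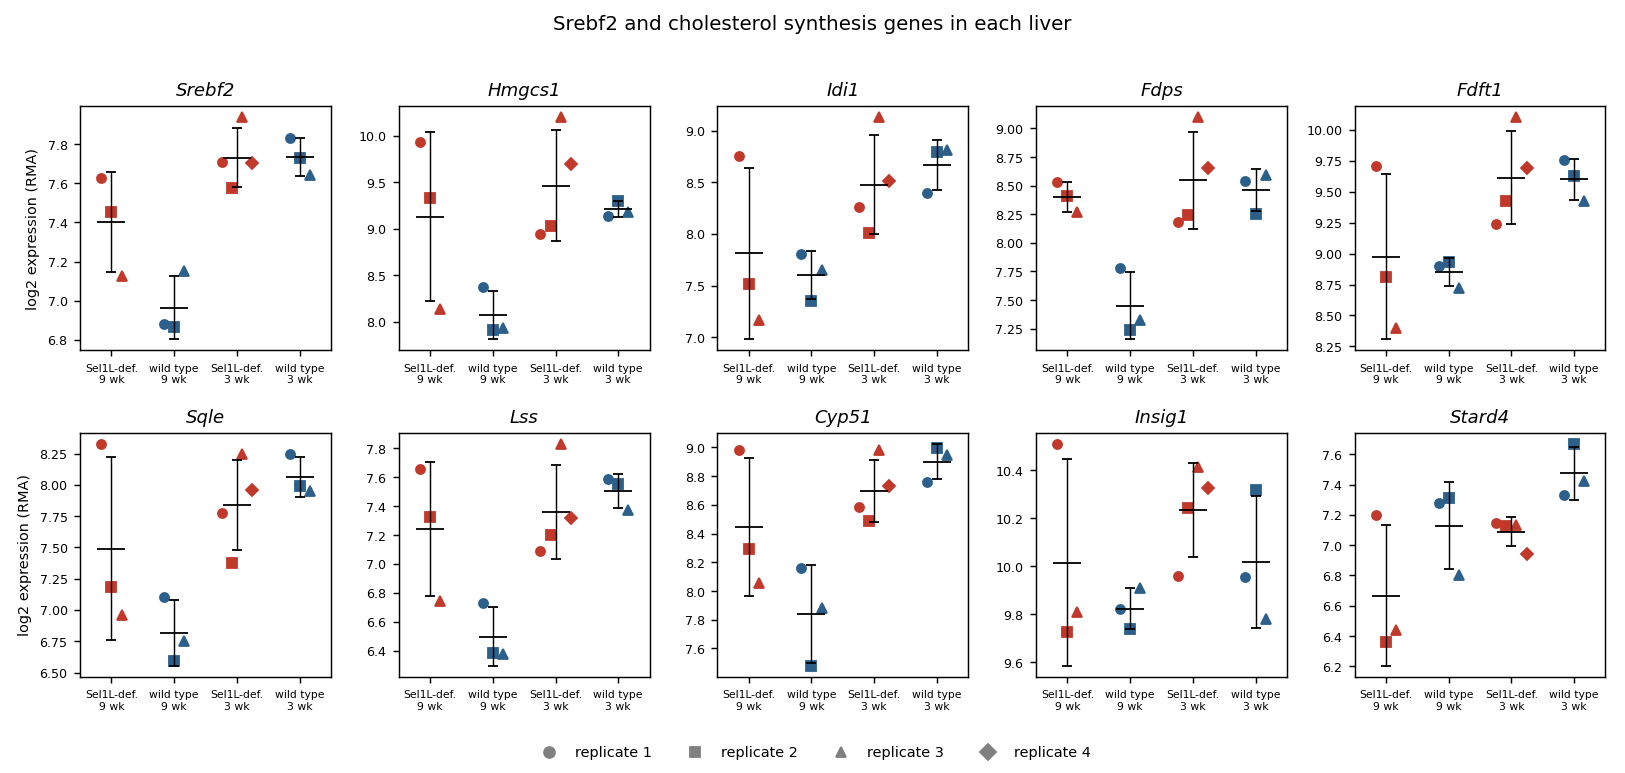
Log2 expression (RMA) of Srebf2 and the 9 related genes in each of the 13 livers, in 4 groups per panel; each symbol is 1 liver, shaped by replicate number, the horizontal mark is the group mean and the bars are ± 1 SD. Each y axis has its own range, and replicate 1 of the 9-week Sel1L-deficient livers is the highest of its group in all 10 panels.

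The comparison at 9 weeks asks what loss of Sel1L does to these genes in young adult liver. Of the 10 genes, 9 had higher means in Sel1L-deficient than in wild-type liver, with Hmgcs1 and Fdps furthest up and Stard4 alone lower. By limma, 0 of 10 passed a Benjamini-Hochberg adjusted p of 0.05 over all features, where 539 of 35556 features did (1.52%). At an unadjusted p under 0.05 there were 6 of 10 (Srebf2, Hmgcs1, Fdps, Lss and Cyp51 higher, Stard4 lower), against 13.9% of all features. The groups did not overlap, with Sel1L-deficient livers higher, for 2 of 10 genes, Fdps and Lss, against 9.89% of all features.

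Fdps averaged 8.40 ± 0.13 in Sel1L-deficient and 7.45 ± 0.29 in wild-type liver (SD, n = 3 each), a log2 difference of 0.95 ± 0.23 (SE; limma adjusted p = 0.0670). Lss differed by 0.74 ± 0.23 (SE; limma adjusted p = 0.159), Srebf2 by 0.44 ± 0.14 (0.164), Cyp51 by 0.60 ± 0.23 (0.265) and Hmgcs1 by 1.06 ± 0.42 (0.275). Hmgcs1 averaged 9.13 ± 0.91 against 8.07 ± 0.26 (SD, n = 3 each), so its larger difference came with a wider spread. Sqle differed by 0.67 ± 0.32, and Idi1, Insig1 and Fdft1 by 0.21 ± 0.37, 0.19 ± 0.21 and 0.12 ± 0.29 (SE). Stard4 differed by -0.46 ± 0.21 (SE; limma adjusted p = 0.355). The median difference over the 10 genes was 0.52, beside -0.01 over all features. It was 0.71 among arrays whose description carries the code 05 (2 Sel1L-deficient livers, 1 wild type) and 0.26 among those with 07 (1 and 2); the sources used here do not say what the code stands for.

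The 9-week result leaned on replicate 1 of the Sel1L-deficient livers. That liver was the highest of its group for all 10 genes and lay above the 9-week wild-type range for 9 of them, all but Stard4. Its mean deviation from the 9-week wild-type mean was 1.02 log2 units, against 0.34 in replicate 2 and 0.01 in replicate 3. Replicate 2 lay above the wild-type range for 6 genes and below it for Insig1 and Stard4, and replicate 3 lay above it for Fdps and Lss and below it for Idi1, Fdft1 and Stard4.

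Without replicate 1 the median difference was 0.29, and Idi1, Fdft1 and Insig1 turned to -0.26, -0.24 and -0.06. Fdps kept a difference of 0.89 and Lss one of 0.54, while Sqle was at 0.25. Hmgcs1, Cyp51 and Srebf2 were at 0.66, 0.34 and 0.32. Stard4 then fell, by 0.73 on the log2 scale (limma adjusted p = 0.0347), the 1 of 10 to pass the test in that fit, where 3.31% of all features were called and 1.05% were called lower. The mean of the 8 Kupffer cell markers was 6.83 in replicate 1, against 8.01 and 7.97 in the other Sel1L-deficient livers and 7.33 to 7.79 in wild type. The mean of the 7 hepatocyte markers was 12.36, 12.23 and 12.17 in Sel1L-deficient replicates 1, 2 and 3 and 12.34 to 12.40 in wild type, with 6 of 7 lower on average, 2 at an unadjusted p under 0.05 and 0 past the test. Erythroid markers, 4 of 4 lower and 0 past the test, had a mean of 3.93 to 4.26 in Sel1L-deficient and 4.28 to 4.64 in wild-type livers. The part of these markers in the result was not tested.

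**Figure D2:**
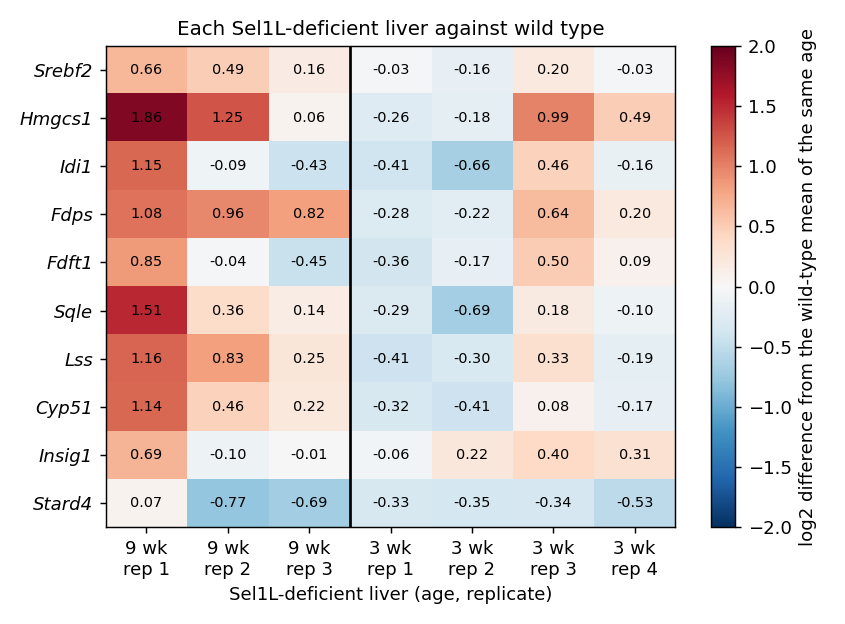
Log2 difference of each Sel1L-deficient liver (columns, by age and replicate) from the mean of the wild-type livers of the same age, for each gene (rows); colour runs from -2 (blue) to 2 (red) and the number is printed in each cell. At 9 weeks replicate 1 is above 0 for all 10 genes and replicate 3 for 6, and Fdps is above 0 in all 3 livers.

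The comparison at 3 weeks asks the same in liver around weaning. The groups of every enzyme overlapped. Of the 10 genes 4 had higher and 6 lower means in Sel1L-deficient liver, with a median difference of -0.07, beside 0.00 over all features. The test passed 0 of 10 genes and 0 of 35556 features (0%), and at an unadjusted p under 0.05 there were also 0 of 10 genes, against 7.41% of features. Groups did not overlap, with Sel1L-deficient livers lower, for 1 of 10 genes, Stard4, against 3.53% of features.

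Stard4 averaged 7.09 ± 0.10 (SD, n = 4) in Sel1L-deficient liver and 7.47 ± 0.17 (n = 3) in wild type, a log2 difference of -0.39 ± 0.20 (SE; limma adjusted p = 0.700). Srebf2 differed by 0.00 ± 0.13, with a 95% interval of -0.29 to 0.28. For Hmgcs1 the difference was 0.26 ± 0.39, with an interval of -0.60 to 1.11, which includes a doubling. The other differences ran from -0.23 (Sqle) to 0.22 (Insig1).

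The 4 Sel1L-deficient livers of this age differed among themselves. Replicate 3 was the highest of the 4 for 9 genes and lay above the wild-type range for 7, with a mean deviation of 0.34 from the wild-type mean. Replicates 1 and 2 lay below the wild-type range for 8 genes each, with mean deviations of -0.27 and -0.29, and replicate 4 stood between at -0.01. Kupffer cell markers had a mean of 7.55 to 7.88 in these livers and 8.02 to 8.16 in wild type, with 8 of 8 lower on average and 0 of 8 past the test. Stellate cell markers, also with 8 of 8 lower and 0 of 8 past it, had one of 6.99 to 7.44 and 7.35 to 7.54. Endothelial markers, 6 of 8 lower with 3 at an unadjusted p under 0.05, had one of 7.81 to 8.11 and 8.09 to 8.19. Erythroid markers, 4 of 4 lower with 2 at an unadjusted p under 0.05, had one of 4.11 to 4.62 and 4.61 to 5.37, and 0 of either list passed the test. Their part in the values was not tested. The median difference was -0.17 among arrays with the code 05 and -0.04 among those with 07.

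Spread among replicates was large for most of these genes in Sel1L-deficient livers. The median SD of the 10 genes was 0.47 in Sel1L-deficient and 0.25 in wild-type livers at 9 weeks, and 0.34 and 0.16 at 3 weeks. Over all 18820 genes the median SD was 0.13 and 0.13 at 9 weeks, and 0.14 in both genotypes at 3 weeks. Fdps went the other way at 9 weeks, with an SD of 0.13 in Sel1L-deficient and 0.29 in wild-type livers. So did Insig1 (0.20 against 0.28) and Stard4 (0.10 against 0.17) at 3 weeks. The 9-week SDs include Sel1L-deficient replicate 1, the highest of its group for all 10 genes, and none was taken without it. The SDs are a description, and the difference in spread was not tested.

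The genotype difference at 9 weeks was set against that at 3 weeks in an interaction term. It was positive for 8 of 10 genes, with a median of 0.62, beside -0.01 over all features. None passed the test (0 of 10, against 0 of 35556 features or 0%), and 4 of 10 had an unadjusted p under 0.05, against 9.73% of features. These were Srebf2 (0.44 ± 0.19, SE), Fdps (0.87 ± 0.31), Lss (0.89 ± 0.32) and Cyp51 (0.81 ± 0.32), with limma adjusted p-values of 0.484, 0.424, 0.425 and 0.457. Insig1 and Stard4 had interactions of -0.02 ± 0.28 and -0.08 ± 0.29. With that 9-week replicate 1 left out the median interaction was 0.36, and 0 of 10 passed.

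The comparison of ages in wild-type liver is the one in which genes of the set passed the test. All 10 genes had lower means at 9 than at 3 weeks, and Srebf2, Fdps and Cyp51 fell past the test: 3 of 10, where 1.89% of all features were called and 1.12% were called lower. The groups did not overlap for 9 of 10 genes, all lower at 9 weeks, against 9.38% of features. Insig1 was the exception. The median difference was -1.01, beside 0.01 over all features.

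Srebf2 averaged 6.96 ± 0.16 at 9 weeks and 7.73 ± 0.10 at 3 weeks in wild type (SD, n = 3 each), a log2 difference of -0.77 ± 0.14 (SE; limma adjusted p = 0.0194). Fdps averaged 7.45 ± 0.29 at 9 weeks and 8.46 ± 0.18 at 3 weeks, a difference of -1.01 ± 0.23 (SE; limma adjusted p = 0.0489). Cyp51 averaged 7.84 ± 0.34 at 9 weeks and 8.90 ± 0.12 at 3 weeks, a difference of -1.06 ± 0.23 (SE; limma adjusted p = 0.0463). These are about 0.59, 0.50 and 0.48 of the 3-week level. Sqle had the largest difference, -1.25 ± 0.32, and Lss one of -1.01 ± 0.23, with limma adjusted p-values of 0.0821 and 0.0557. Hmgcs1, Idi1 and Fdft1 differed by -1.13 ± 0.42, -1.07 ± 0.37 and -0.75 ± 0.29 (SE), and Stard4 and Insig1 by -0.34 ± 0.21 and -0.20 ± 0.21.

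The calls sat near the threshold. Leaving out any one of the 6 wild-type livers ended those of Fdps and Cyp51, and 4 of the 6 ended that of Srebf2, whose limma adjusted p ran from 0.0311 to 0.0804 while its difference stayed between -0.86 and -0.72. Fitted on the wild-type livers alone, the limma adjusted p of Srebf2, Fdps and Cyp51 was 0.0594, 0.0929 and 0.0921, and Hmgcs1, Sqle and Lss passed. With the array code as a block the call of Srebf2 held and those of Fdps and Cyp51 ended (0.0765 and 0.0573). The median difference was -1.17 among arrays with the code 05 (1 liver at 9 weeks, 2 at 3 weeks) and -0.89 among those with 07 (2 and 1). Markers of sinusoidal endothelial cells had a mean of 7.78 to 7.85 at 9 weeks and 8.09 to 8.19 at 3 weeks, and Kupffer markers one of 7.33 to 7.79 and 8.02 to 8.16. Of these lists 3 of 8 endothelial and 1 of 8 Kupffer markers fell past the test, as did 1 of 8 stellate and 1 of 4 erythroid markers. Over all features 1.12% were called lower. Hepatocyte markers were at 12.3 to 12.4 at both ages, with 0 of 7 past the test. The part of these markers in the age difference was not tested.

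The same comparison of ages in Sel1L-deficient liver gave differences nearer to 0 than in wild type for 8 genes and farther from it for Insig1 (-0.22 against -0.20) and Stard4 (-0.42 against -0.34). All 10 genes again had lower means at 9 weeks, with a median of -0.33, beside 0.00 over all features. The test passed 0 of 10, where 0.155% of features were called, and groups overlapped for all 10 genes, where they did not for 9.35% of features. At an unadjusted p under 0.05 there were 2 of 10, Srebf2 (-0.33 ± 0.13, SE) and Fdft1 (-0.64 ± 0.27), against 10.1% of features. Fdps and Lss, beyond -1 in wild type, were at -0.14 ± 0.21 and -0.12 ± 0.22 here. Whether ageing differed between genotypes is the interaction given above, which passed for none. Without replicate 1 of the 9-week livers the median was -0.60, and 0 of 10 passed. Replicate 1 at 9 weeks lay within or above the 3-week wild-type range for 8 of 10 genes, all but Srebf2 and Stard4. Replicates 2 and 3 each lay below that range for 8 genes, and replicate 2 lay above it for Hmgcs1.

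**Figure D3:**
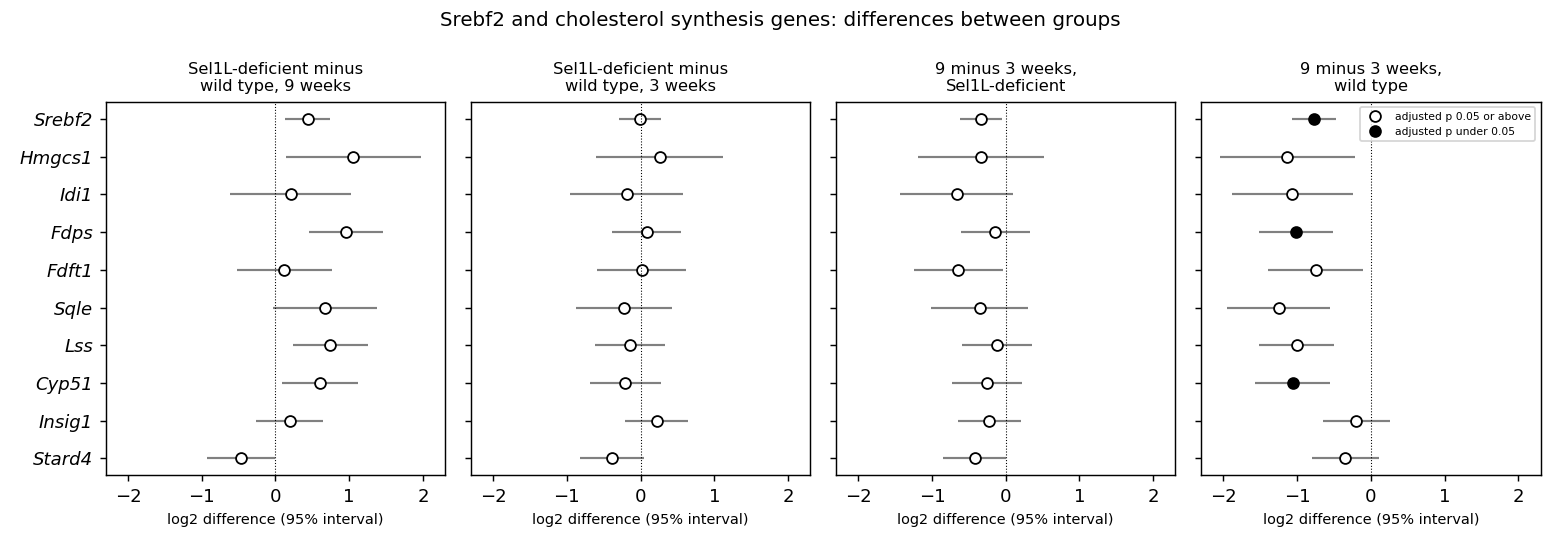
Log2 differences of the 10 genes in 4 comparisons between groups, with 95% intervals from the limma fit on 13 livers; filled points have an adjusted p under 0.05 over all 35556 features. Filled points are Srebf2, Fdps and Cyp51 in the wild-type comparison of ages, and all 10 points of that panel lie below 0.

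The rest of the pathway was read from 12 further synthesis enzymes with a feature of their own (of 15 listed). At 9 weeks 0 of 12 passed the test between genotypes and 3 had an unadjusted p under 0.05, against 13.9% of all features. Mvd, mevalonate diphosphate decarboxylase, differed by 1.18 ± 0.32 (SE; limma adjusted p = 0.101) and Hsd17b7, a 3-ketosteroid reductase, by 0.70 ± 0.21 (0.148), both without overlap. Mvd read 6.75, 6.37 and 6.40 in Sel1L-deficient livers, against 5.85, 4.84 and 5.27 in wild-type livers. Tm7sf2, a sterol C14 reductase, differed by -0.45 ± 0.20 and Ebp, a sterol isomerase, by 0.20 ± 0.14. The list's median was 0.14, with 7 of 12 above 0. Without replicate 1 of the Sel1L-deficient livers it was 0.01, with 6 of 12 above 0. Mvd was then at 1.06 ± 0.36, Hsd17b7 at 0.50 ± 0.21 and Ebp at 0.24 ± 0.16. Tm7sf2 fell, by 0.72 on the log2 scale (limma adjusted p = 0.0209), the 1 of 12 called in that fit. Over all features 3.31% were called there and 1.05% were called lower.

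At 3 weeks 0 of the 12 enzymes passed, 6 lay above and 6 below 0, and the median was 0.00. Groups did not overlap for 3 of the 12, with Sel1L-deficient livers lower, against 3.53% of all features. Pmvk, phosphomevalonate kinase, and Hsd17b7 were among these, with differences of -0.51 ± 0.25 and -0.39 ± 0.20 (SE). For Hsd17b7 the highest Sel1L-deficient and the lowest wild-type value were 8.79 and 8.82. For the third gene they were 9.352 and 9.359. Ggps1, which makes geranylgeranyl diphosphate, and Lbr, a nuclear membrane sterol reductase, differed by 0.24 ± 0.10 and -0.35 ± 0.15. Hsd17b7 thus had means on opposite sides of wild type at the 2 ages (8.95 against 8.25 at 9 weeks, and 8.67 against 9.06 at 3 weeks). With age in wild type 11 of the 12 were lower and 8 without overlap, against 9.38% of all features, 0 passed, and the median was -0.68. Ggps1 was the one above 0, at 0.26 ± 0.10.

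Genes that process SREBP2 or bring sterol into the cell had median differences near 0. Of 8 measured (11 listed) 0 passed between genotypes at either age, with medians of -0.02 at 9 weeks and -0.03 at 3 weeks. At 9 weeks Lrp1, an endocytic lipoprotein receptor, differed by -0.33 ± 0.08 (SE; limma adjusted p = 0.0795) without overlap. Srebf1, the sister gene of Srebf2 that drives fatty acid synthesis, differed by -0.86 ± 0.32, opposite in sign to Srebf2. Scap, the escort of SREBP2, differed by -0.29 ± 0.16 and Mbtps1, the protease that first cuts it, by 0.14 ± 0.09. Scap had 2 features of its own, and only the brighter on average was read. Srebf1 read 7.37, 6.15 and 6.26 in Sel1L-deficient livers, against 7.52, 7.68 and 7.17 in wild-type livers, so replicate 1 was again the highest Sel1L-deficient liver. Without that liver Srebf1 and Scap fell, by 1.25 and 0.51 on the log2 scale (limma adjusted p = 0.0318 and 0.0189). These were 2 of 8, where 3.31% of all features were called and 1.05% were called lower. Lrp1 was then at -0.37 ± 0.09 and Mbtps1 at 0.22 ± 0.09, and the list's median was 0.01. At 3 weeks Npc1, Scap, Lrp1 and Npc2, the genes with the smallest p, had differences between -0.13 and 0.06. The 3-week groups did not overlap for Scap, with Sel1L-deficient livers lower, 1 of 8 against 3.53% of all features. Its highest Sel1L-deficient and lowest wild-type value were 9.14 and 9.16.

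Abcg5 and Abcg8, the paired half-transporters that move sterols into bile, fell at 9 weeks, 2 of 8 measured genes of the list of export, esterification and LXR genes (11 listed), where 0.484% of all features were called lower. Abcg5 read 8.57, 8.54 and 8.69 in Sel1L-deficient livers, against 9.64, 9.40 and 9.36 in wild-type livers. Abcg8 read 8.45, 8.42 and 8.19 in Sel1L-deficient livers, against 9.19, 8.95 and 9.12 in wild-type livers. Neither pair of groups overlapped, and the SD of the 3 Sel1L-deficient livers was 0.08 for Abcg5 and 0.14 for Abcg8. The share of all features that separated in this direction at 9 weeks is not given here. The lack of overlap for Abcg5, Abcg8, Abca1 and Lrp1 therefore cannot be set against it. The log2 differences were -0.86 ± 0.14 for Abcg5 (SE; limma adjusted p = 0.0196; 0.549-fold) and -0.73 ± 0.11 for Abcg8 (limma adjusted p = 0.0131; 0.602-fold).

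At 3 weeks Abcg5 and Abcg8 had differences of -0.49 ± 0.13 and -0.24 ± 0.10 (SE; limma adjusted p = 0.439 and 0.652), and 0 of the 8 passed. Abcg5 read 9.40, 9.31, 8.80 and 9.34 in Sel1L-deficient livers, against 9.69, 9.70 and 9.71 in wild-type livers, without overlap. Abca1, the exporter of cholesterol to lipoproteins, differed by -0.30 ± 0.07 at 9 weeks without overlap (limma adjusted p = 0.0722), and Abcg1 by -0.23 ± 0.20. At 3 weeks Lpcat3, a phospholipid remodelling enzyme, differed by -0.19 ± 0.08 and Abcg1 by -0.22 ± 0.19. The list's medians were -0.15 at 9 weeks and -0.13 at 3 weeks, with 7 of 8 below 0 at each age. Without Sel1L-deficient replicate 1 at 9 weeks the median was -0.11, Abca1 was at -0.30 ± 0.08 and Abcg1 at -0.05 ± 0.20.

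The 9-week calls of Abcg5 and Abcg8 held without replicate 1 of the Sel1L-deficient livers (limma adjusted p = 0.0227 and 0.00799). They ended without either of the other Sel1L-deficient livers or without wild-type replicate 1, and that of Abcg5 also without wild-type replicate 2, with adjusted p-values of up to 0.0943 and 0.0660. The differences stayed between -0.92 and -0.78 for Abcg5 and between -0.80 and -0.65 for Abcg8. Fitted on the 9-week livers alone, the adjusted p was 0.135 for Abcg5 and 0.152 for Abcg8.

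ERAD genes that act on sterol regulators were the last list, 9 measured of 11. At 9 weeks Syvn1, which encodes Hrd1 and partners Sel1L, rose by 1.70 ± 0.26 on the log2 scale (SE; limma adjusted p = 0.0154), the 1 of 9 called, where 1.03% of all features were called higher. Syvn1 read 8.87, 9.81 and 10.11 in Sel1L-deficient livers, against 7.80, 7.91 and 8.00 in wild-type livers. Replicate 1, the highest for the synthesis genes, had the least Syvn1 of the 3. Leaving out Sel1L-deficient replicate 2 or 3, or wild-type replicate 1 or 2, ended the call (limma adjusted p of up to 0.0784), as did a fit on the 9-week livers alone (0.172). Ube2g2, a ubiquitin-conjugating enzyme of ERAD, differed by 0.41 ± 0.14 without overlap (limma adjusted p = 0.207), and Aup1 and Faf2 by 0.11 ± 0.07 and 0.11 ± 0.09. At 3 weeks 0 of 9 passed, and Syvn1, Aup1, Ube2g2 and Faf2 had differences of 0.54 ± 0.25, 0.13 ± 0.07, 0.25 ± 0.13 and 0.13 ± 0.08. The 3-week groups of Syvn1 and Aup1 did not overlap, with Sel1L-deficient livers higher (2 of 9). The share of all features that separated in this direction at 3 weeks is not given here, so that count cannot be set against it. For Syvn1 the lowest Sel1L-deficient and the highest wild-type value were 7.89 and 7.81. The list's medians were 0.11 at 9 weeks and 0.13 at 3 weeks. Without Sel1L-deficient replicate 1 the 9-week median was 0.09, Syvn1 rose by 2.06 (limma adjusted p = 0.00117), and Ube2g2, Aup1 and Faf2 were at 0.49 ± 0.16, 0.12 ± 0.08 and 0.12 ± 0.10.

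**Figure D4:**
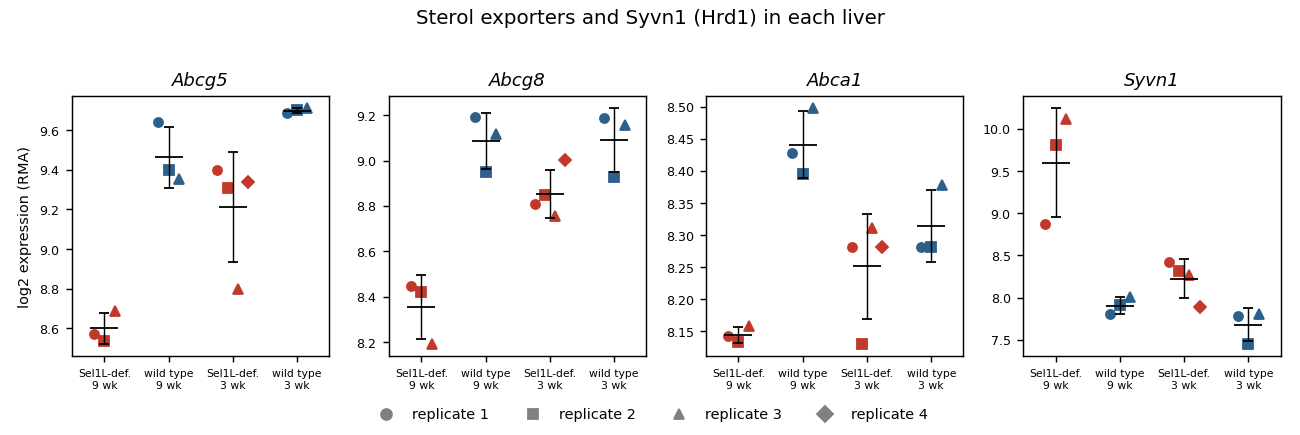
Log2 expression (RMA) of Abcg5, Abcg8, Abca1 and Syvn1 in each liver, drawn as in the plot of the 10 genes (1 symbol per liver, group mean and ± 1 SD, own y axis per panel). At 9 weeks the Sel1L-deficient livers lie below all wild-type livers for Abcg5, Abcg8 and Abca1 and above them for Syvn1.

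Likeness of profile was measured as the root mean square difference between log2 values, each gene centred on its own mean over the 13 livers, so small values mean a like pattern and size. Within the set, Cyp51 (0.14) and Lss (0.16) were nearest to the mean of the other 9 genes, Fdft1 (0.19), Srebf2 (0.20) and Sqle (0.22) followed, and Stard4 (0.46), Hmgcs1 (0.38) and Insig1 (0.31) were farthest. Outside it, the nearest of 16537 genes to the mean of the 10 were Rdh11, a retinol dehydrogenase, at 0.19, and Dhcr7, the last enzyme of one branch of cholesterol synthesis, at 0.19. Next came Acy1, an aminoacylase, Avpr1a, a vasopressin receptor, Erg28, whose yeast counterpart is a scaffold of ergosterol synthesis enzymes, and Dpf3, a subunit of a chromatin remodelling complex, at 0.20, 0.21, 0.22 and 0.22. The median gene was at 0.46. Rdh11 averaged 6.92 ± 0.52 in Sel1L-deficient and 6.70 ± 0.26 in wild-type livers at 9 weeks (SD, n = 3 each), and 7.08 ± 0.21 (n = 4) and 7.31 ± 0.09 (n = 3) at 3 weeks.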

How the data were processed

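Liver RNA (100 ng per liver) had been labelled for whole-transcript Affymetrix arrays, 1 array per mouse, per the labels' protocols. The authors deposited log2 expression values per feature; the submitters' processing notes name RMA. That procedure subtracts background, gives all arrays 1 distribution and summarises probes, so a shift common to most genes would be largely removed. Neither its version nor the probe set definition is stated in those sources. There were 35556 features, of which 21218 carried 1 gene symbol in the platform annotation, 1881 several and 12457 were not listed there. All 87 list genes measured here matched a gene number in RefSeq (GRCm38.p6).

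The titles gave group and replicate number; the array descriptions of 2 livers at 9 weeks carry another replicate number. The labels describe separate mice and no litter or hybridisation batch. For each comparison limma 3.58.1 (R 4.3.3; 1 mean per group over all 13 livers, eBayes, two-sided) gave a difference and a p, with Benjamini-Hochberg adjustment over all 35556 features and a threshold of 0.05. The fit was tested on simulated data. The number of arrays limits the precision. Same-numbered livers of both genotypes did not deviate together (correlations of -0.01 to 0.07), so numbers were not used as pairs. The genes and lists were chosen with earlier results of these data known. The text names the 10 genes, Sel1l, every called gene of a pathway list and up to 4 more of each list with the smallest p in a genotype comparison, and the 6 named genes outside the set with the nearest profiles (predicted genes and receptor or small RNA families left out). Bile duct, stellate and erythroid markers were also read, with list means of 3.59 to 4.06, 6.65 to 7.54 and 3.93 to 5.37 over the livers. Alternatives were other sets of tested features, a minimum mean of 4, blocks for the replicate number or the array code, fits on the compared groups alone, median-centred arrays, another moderation and each liver left out. Listed genes without a feature of their own were not analysed here.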

Additional observations from a re-analysis of the deposited data

Results flagged for a closer look

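Among the 4 Sel1L-deficient livers at 3 weeks, 1 liver stood far from the other 3 for 6 of 88 genes examined by Dixon's gap test; chance alone flags about 1 in 20 groups. Stard4 was low in replicate 4 (6.94), Abcg5 in replicate 3 (8.80), and Abca1 and Nr1h3 in replicate 2 (8.13 and 8.62). C1qb was high in replicate 4 (9.29) and Sox9 in replicate 3 (5.80). Groups of 3 livers were not examined in this way. The genotype difference at 9 weeks was past the test against that at 3 weeks for 0 of 87 genes (limma, interaction term).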

How the results depend on the processing

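With 1 liver left out the median difference of the 10 genes ran from 0.29 to 0.69 for genotype at 9 weeks, from -0.22 to 0.01 for genotype at 3 weeks, from 0.36 to 0.83 for the interaction, from -1.15 to -0.89 for age in wild type and from -0.60 to -0.10 for age in Sel1L-deficient liver. The ends of 0.29, 0.36 and -0.60 came without the 9-week Sel1L-deficient replicate 1. Over the same fits, called genes among the 10 numbered 0 to 1 at 9 weeks and in wild-type ageing, and 0 in the other comparisons. In wild-type ageing the main count of 3 became 5 when only features with 1 symbol, or only those with a mean of at least 4, were tested (Sqle and Lss added), 1 with the array code as a block and 0 with the replicate number as a block. At 9 weeks it became 1, Fdps, under the same 2 restrictions (adjusted p = 0.0313 and 0.0333), where fewer features were tested.

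Counts over all features moved more. For genotype at 9 weeks the 539 became 940 (mean of at least 4), 184 (replicate block), 294 (array code), 1 (only the groups compared) and 18 to 1178 with 1 liver left out, the highest without Sel1L-deficient replicate 1. For wild-type ageing the 672 became 440 (replicate block), 255 (groups compared) and 296 to 414. For Sel1L-deficient ageing the 55 became 144 (1 symbol), 118 (mean of at least 4), 12 (replicate block), 18 (array code), 9 (groups compared), 35 (median-centred arrays) and 6 to 210. With 1 symbol the 3-week comparison had 2 and the interaction 15, and with 1 liver left out 0 to 1 and 0 to 36. The cause was not tested.

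Signs turned only for differences that passed no test. At 3 weeks Srebf2 (0.0062) and Fdft1 (-0.0108), and in the interaction Insig1 (0.0057), turned with the replicate block, and Fdft1 (-0.0112) with median-centred arrays. With 1 liver left out, Srebf2, Fdps and Fdft1 ran from -0.0707 to 0.0490, -0.10 to 0.205 and -0.15 to 0.14 at 3 weeks. Idi1, Fdft1 and Insig1 ran from -0.26 to 0.53, -0.24 to 0.41 and -0.0553 to 0.34 at 9 weeks. In the interaction Idi1, Fdft1, Insig1 and Stard4 ran from -0.0706 to 0.72, -0.26 to 0.39, -0.27 to 0.12 and -0.34 to 0.0761. In Sel1L-deficient ageing Hmgcs1, Fdps and Lss ran from -0.73 to 0.16, -0.26 to 0.0414 and -0.33 to 0.13. The alternatives for Abcg5, Abcg8 and Syvn1 were added after their values were seen, as were those of other list genes without 9-week Sel1L-deficient replicate 1; fitted on the compared groups alone, their adjusted p-values were 0.135, 0.152 and 0.172. Replicates were not paired by their numbers, but the replicate block raised the adjusted p of Srebf2, Fdps and Cyp51 in wild-type ageing to 0.0628, 0.0953 and 0.0939 and that of Abcg5 at 9 weeks to 0.0505; it changed no other call among these genes, Abcg8 and Syvn1.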
